A study of Rattus norvegicus with 2 samples.

Results

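The genes examined here encode the mitochondrial carriers of the Slc25a family and the sideroflexins, Sfxn, in natural killer (NK) cells of the rat spleen. They were taken as every probe set whose single annotated gene symbol starts with Slc25a or Sfxn, which gave 63 probe sets for 44 genes, 40 carriers and 4 sideroflexins, among 14217 genes on the array. A gene with several probe sets was represented by the one with the highest mean log2 signal, so the signals themselves chose the probe set shown, and the other probe sets are given as a check. The cells were NKR-P1A+ and CD3-, came from PVG.7b rats aged 8 to 12 weeks, and were sorted as single-positive for NKR-P1B, an inhibitory lectin-like receptor, or for Ly49s3, an activating one. Per the labels, 9 rats were used, cells of other lineages were first depleted with antibodies and beads, and the sorted cells were more than 90% pure. How the rats were divided or pooled between the populations was not stated. Each population was hybridised to 1 array, so no difference could be tested against replicates, and each describes this pair of arrays.

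Most metabolites cannot cross the inner mitochondrial membrane unaided. Slc25 carriers are built from a repeated membrane-spanning module and typically swap a solute of the matrix for one of the cytosol, such as ATP for ADP, malate for phosphate or aspartate for glutamate. Sideroflexins are a separate family of the same membrane, and the best known of them brings serine into mitochondria for one-carbon metabolism. In lymphocytes these proteins link glycolysis, respiration and biosynthesis, which all increase when the cells are activated and divide.

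Signal is in arbitrary units on a linear scale, and a signal of 20.4, the 50th percentile of all non-control signals, was used as a floor. A gene is called measured if at least 1 array was above it. Of the 44 genes, 34 were measured, 30 of them above the floor on both arrays, against 9114 measured genes of 14217 in all. In NKR-P1B+ cells 5 of the 34 differed by at least 1.5-fold from Ly49s3+ cells, where 10.8% of all measured genes did. Of these, 2 were higher (5.06% of all genes) and 3 lower (5.72% of all genes) in NKR-P1B+ cells. By at least 2-fold, 2 of the 34 were apart, both lower in NKR-P1B+ cells, where 2.98% of all measured genes were that far apart and 1.21% that much lower. The count at 1.5-fold is thus close to the background share, and the count at 2-fold rests on a pair of genes, of which Slc25a4 was already known to differ when the genes were chosen. The 2 genes were Slc25a4, a carrier of ADP and ATP, and Sfxn1, the serine carrier. Slc25a10, a dicarboxylate carrier, was also lower in NKR-P1B+ cells, while Slc25a25, an ATP-Mg/phosphate carrier, and Slc25a45 were higher there. Slc25a10 and Slc25a45 counted as measured through 1 array only, the one where each was higher, so the filter set their direction. Of the 30 genes above the floor on both arrays, 3 were at least 1.5-fold apart, namely Slc25a4, Sfxn1 and Slc25a25. The 10.8% above includes genes with 1 array at the floor. The share among the 8286 genes above it on both arrays was not counted, so these 3 have no like background. With RNA from whole populations, fewer cells of a kind and less RNA per cell cannot be told apart.

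The other 29 measured genes (85.3%) were within 1.5-fold, where 89.2% of all measured genes were. Within 1.2-fold were 20 of the 34, a share that was not counted over all measured genes. Over the 34 genes the median of the log2 difference (NKR-P1B+ minus Ly49s3+) was −0.08, against −0.02 over all measured genes, with an SD of 0.53 across the 34 and 0.42 across all. Without Slc25a4 and Sfxn1 the median was −0.04. By sign, 15 genes were higher in NKR-P1B+ cells and 19 lower (55.9%), close to the 52.2% of all measured genes that were lower. These directions are relative to the deposited scale. The poly-A RNA spikes, added before labelling, had a median log2 difference of −0.53 over 17 probe sets, with a range of −0.97 to 0.21 that includes both signs, while the hybridisation spikes, added after labelling, had a median of 0.01. Scaling the arrays to these spikes moved the median of all measured genes to 0.50 and that of the carriers and sideroflexins to 0.46. It gave 14 higher and 2 lower genes at 1.5-fold among 33 (42.4% and 6.06%), in place of 2 and 3, where 38% and 1.03% of 9162 genes were. Under that scaling 14 of the 33 genes with a value changed sign, and 17 of the 33 lay below the median of all genes. The share with a positive difference rose from 44.1% to 87.9% of the carriers and sideroflexins. Over all measured genes it rose in a similar way, from 47.6% to 91.7%. The genes that changed sign are named with their groups below. Slc25a4, Sfxn1 and Slc25a10 did not change sign, while Slc25a25 and Slc25a45 could not, since this scaling moves differences upward. Relative to the shifted median the log2 differences of these 5 genes, in the order named, were −1.65, −1.34, −0.93, 0.95 and 0.72.

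**Figure D1:**
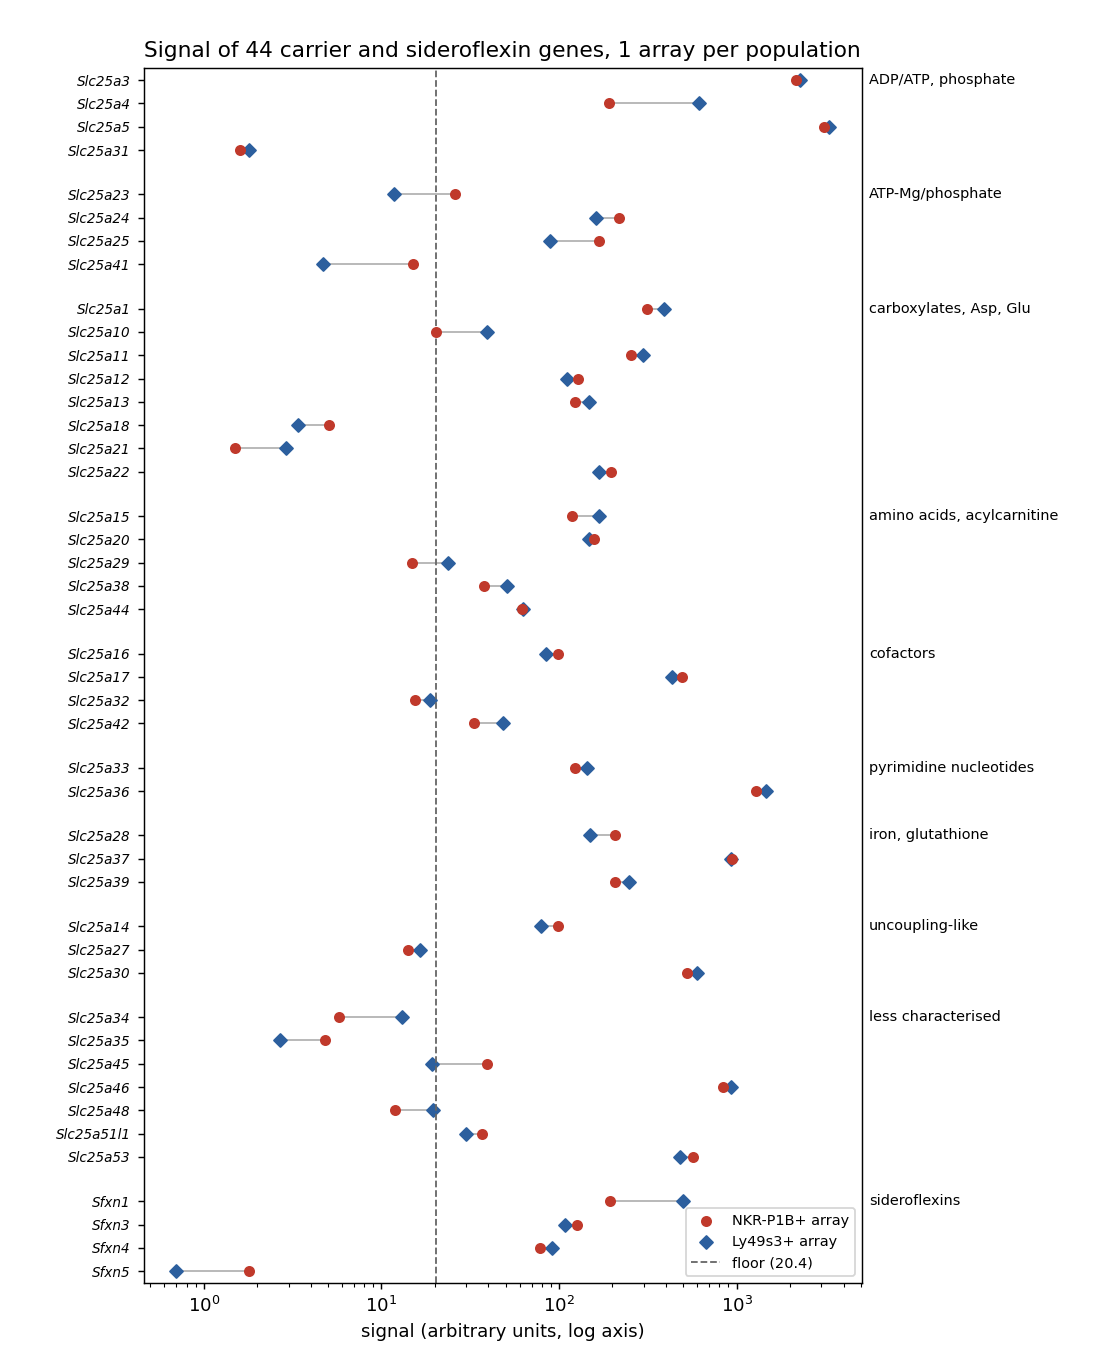
Signal of each of the 44 genes in NKR-P1B+ cells (red circles) and Ly49s3+ cells (blue diamonds), in arbitrary units on a log axis, grouped by the solute carried. Most pairs of points lie close together, Slc25a4 and Sfxn1 are widely separated above the floor of 20.4 (dashed line), and 10 genes lie below it on both arrays.

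The regions before the starts of Slc25a4, Sfxn1 and Slc25a25 are shown because these were the 3 genes that stayed at least 1.5-fold apart under every setting planned. Promoter windows run from 250 bases before to 50 bases after the transcript start in RefSeq's GRCr8 table, 38 of the 44 genes had one, and for Sfxn1 and Slc25a25 that start lies inside the annotated gene. They are at chr16:52805271-52805570 on the + strand, chr17:10527514-10527813 on the − strand and chr3:36116532-36116831 on the − strand. Capitals mark the CCAAT box and the ETS core CCGGAAG in Slc25a4 and Sfxn1, and the CCAAT box and the cyclic AMP response element TGACGTCA in Slc25a25, on either strand.
Slc25a4: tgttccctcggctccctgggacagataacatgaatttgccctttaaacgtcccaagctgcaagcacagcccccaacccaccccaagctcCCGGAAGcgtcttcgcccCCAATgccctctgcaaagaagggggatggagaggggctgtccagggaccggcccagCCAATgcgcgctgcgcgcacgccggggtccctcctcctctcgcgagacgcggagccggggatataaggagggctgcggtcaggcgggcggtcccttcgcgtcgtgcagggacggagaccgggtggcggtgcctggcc
Sfxn1: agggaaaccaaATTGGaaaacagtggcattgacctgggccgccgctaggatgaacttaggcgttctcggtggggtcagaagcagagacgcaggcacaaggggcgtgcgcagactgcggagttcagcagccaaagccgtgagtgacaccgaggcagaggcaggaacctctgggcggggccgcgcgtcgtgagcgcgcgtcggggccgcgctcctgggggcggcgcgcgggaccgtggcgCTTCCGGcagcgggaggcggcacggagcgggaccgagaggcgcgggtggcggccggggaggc
Slc25a25: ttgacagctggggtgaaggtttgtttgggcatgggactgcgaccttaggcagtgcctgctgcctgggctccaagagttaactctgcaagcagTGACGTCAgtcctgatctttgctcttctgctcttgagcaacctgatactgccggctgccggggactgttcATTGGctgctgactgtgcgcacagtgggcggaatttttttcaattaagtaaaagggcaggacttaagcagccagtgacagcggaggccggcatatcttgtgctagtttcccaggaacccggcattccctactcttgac

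The ETS core, a site type bound by factors such as GABP that act on many genes for mitochondrial proteins, began at position −161 in Slc25a4 and at −12 in Sfxn1, counted from 0 at the start. It was present in 7 of the 38 windows (18.4%), also those of Slc25a14, Slc25a17 and Slc25a20, which were higher in NKR-P1B+ cells, and Slc25a3 and Slc25a38, which were lower on the deposited scale, and in 9.22% of 27457 promoter windows of the same length. The cyclic AMP response element, the site of CREB, began at −158 in Slc25a25 and was present in 2 of the 38 windows (5.26%), against 1.91% of all windows. The other window was that of Slc25a33, which was lower in NKR-P1B+ cells on the deposited scale. CCAAT was found in 57.9% of the 38 windows against 37.7% of all, the GC box GGGCGG in 73.7% against 34.9%, the E-box CACGTG in 5.26% against 6.65%, the TATA box TATAAA in 7.89% against 14.3%, and the palindromic NRF1 site in 0 of 38 windows against 0.932% of all. The shorter NRF1 form GCATGCGC was in 2 of 38 windows (5.26%) against 2.66% of all, and the half-site TGACG, part of the cyclic AMP response element, in 11 (28.9%) against 22%. The motifs were searched on both strands, the capitals of different motifs do not overlap in the windows shown, and the motifs were chosen with the genes' signals known. Base composition also differed between the sets, and the median G+C content was 60.3% in the 38 windows and 52.3% in all. A match describes the letters of these windows only, and binding was not measured.

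The ADP/ATP and phosphate carriers supply the ATP synthase with its substrates and send ATP to the cytosol. Slc25a4 encodes the ADP/ATP carrier that predominates in heart and skeletal muscle. Its single probe set had 190.6 in NKR-P1B+ cells and 610.5 in Ly49s3+ cells, 3.20-fold lower in NKR-P1B+ cells (log2 difference −1.68). Of 8286 genes above the floor on both arrays, 9, Slc25a4 included, were at least as far apart in that direction. Among all 9114 measured genes, Slc25a4 ranked 18 from the lowest difference. Slc25a5 encodes the ADP/ATP carrier typical of dividing cells and had 3117.5 in NKR-P1B+ cells and 3323.4 in Ly49s3+ cells, a log2 difference of −0.09. Slc25a3, the phosphate carrier, had 2160 in NKR-P1B+ cells and 2276.7 in Ly49s3+ cells, a log2 difference of −0.08. Both were thus within 1.2-fold while Slc25a4 was not, and both changed sign with the scaling to poly-A spikes. RefSeq lists pseudogenes of these carriers, and whether their transcripts reach the probe sets was not tested. Slc25a31, the testis ADP/ATP carrier, was below the floor on both arrays, at 1.6 in NKR-P1B+ cells and 1.8 in Ly49s3+ cells.

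With no replicates, precision was described by how far different probe sets of the same gene disagree. Only probe sets above the floor on both arrays were used for this. Across genes whose dimmer probe set had a signal from 200 to 400 on average, the log2 differences of a pair of probe sets were subtracted and the SD of the result, over the square root of 2 to refer to a single probe set, was 0.18 (246 genes), from 100 to 200 it was 0.22 (386 genes) and from 20.4 to 50 it was 0.32 (656 genes). The log2 differences of Slc25a4 and Sfxn1 were several times the first of these SDs, and that of Slc25a25 exceeded the second. These SDs do not apply to Slc25a10 and Slc25a45, since each had 1 value below the floor on the probe set used. Since all probe sets of a gene read the same RNA, this spread does not include the variation of animals, sorting or hybridisation.

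The ATP-Mg/phosphate carriers adjust the adenine nucleotide content of the matrix, most of them in response to cytosolic calcium. Of the 4 genes 3 were measured, and 2 of these, Slc25a25 and Slc25a24, were above the floor on both arrays. Both were higher in NKR-P1B+ cells on the deposited scale, where 47.6% of all measured genes were. The third, Slc25a23, was above the floor in NKR-P1B+ cells only, so the filter set its direction. Relative to the median of all genes under poly-A scaling, the log2 differences were 0.95 for Slc25a25, 0.45 for Slc25a24 and 0.11 for Slc25a23. Slc25a25 had 166.9 in NKR-P1B+ cells and 88.7 in Ly49s3+ cells, 1.88-fold higher in NKR-P1B+ cells (log2 difference 0.91). Slc25a24 had 216.4 in NKR-P1B+ cells and 161.7 in Ly49s3+ cells (1.34-fold, 0.42). Slc25a23 was at least 1.26-fold higher in NKR-P1B+ cells, at 25.8 against 11.8 in Ly49s3+ cells, the second value being below the floor. Its other probe sets were below the floor on both arrays. Slc25a41, which lacks the calcium-binding part, was below the floor at 15.0 in NKR-P1B+ cells and 4.7 in Ly49s3+ cells.

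**Figure D2:**
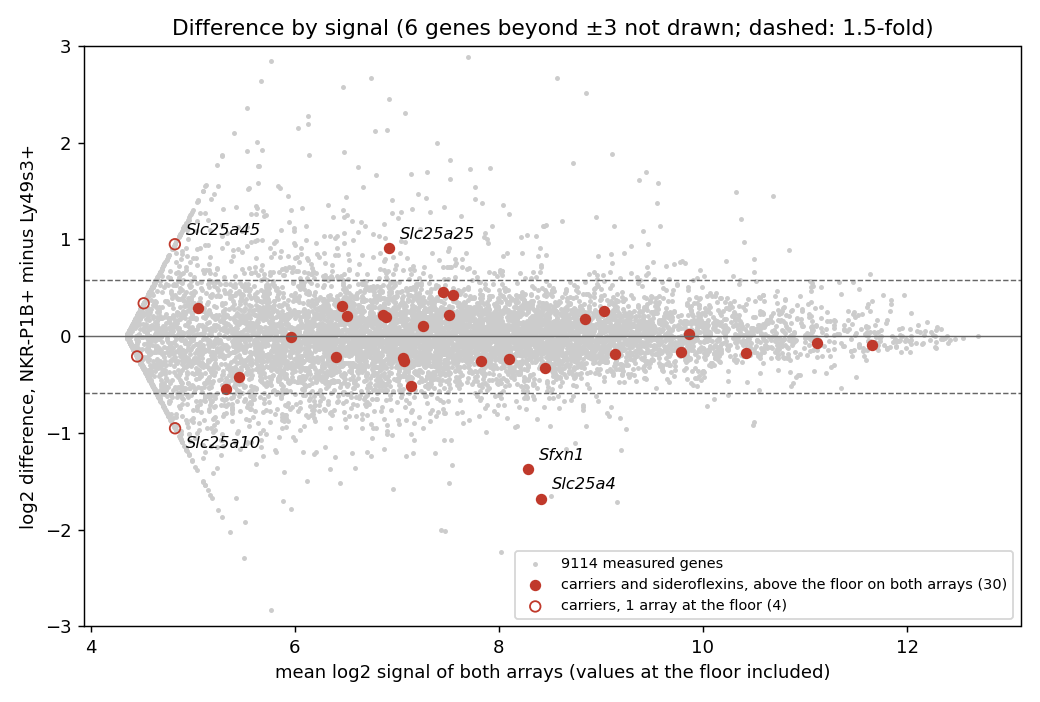
Log2 difference, NKR-P1B+ minus Ly49s3+ on the deposited scale, against the mean log2 signal of both arrays, for the 9114 measured genes (grey, 6 beyond ±3 not drawn) and the carriers and sideroflexins (red, open where 1 array was at the floor). Dashed lines mark 1.5-fold, the 5 genes beyond them are named, and Slc25a4 and Sfxn1 lie at −1.68 and −1.37, well outside most genes of similar signal.

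Sideroflexins were led by Sfxn1, which was found in human cells to carry serine into mitochondria. Its probe set of higher signal had 193.4 in NKR-P1B+ cells and 500.9 in Ly49s3+ cells, 2.59-fold lower in NKR-P1B+ cells (log2 difference −1.37). The second probe set pointed the same way, with 29.5 in NKR-P1B+ cells against 55.4 in Ly49s3+ cells (1.88-fold, −0.91). In that direction 19 of the 8286 genes above the floor on both arrays were at least as far apart as Sfxn1, itself included. Among all 9114 measured genes, Sfxn1 ranked 36 from the lowest difference. Sfxn3, whose product overlaps with that of Sfxn1 in serine transport, ran the other way at 125.9 in NKR-P1B+ cells and 108.6 in Ly49s3+ cells (log2 difference 0.21). Sfxn4, needed for assembly of respiratory complex I, had 78.6 in NKR-P1B+ cells and 91.1 in Ly49s3+ cells (−0.21), and changed sign with poly-A scaling. Sfxn5 was below the floor, at 1.8 in NKR-P1B+ cells and 0.7 in Ly49s3+ cells. Within this family the separation on the deposited scale was thus seen for Sfxn1 and not for the other measured genes. With poly-A scaling Sfxn3 was also at least 1.5-fold apart, at 0.74, or 0.25 relative to the median of all genes.

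Serine brought into mitochondria is used by folate enzymes, and a list of 10 genes for serine, glycine and folate enzymes was examined beside Sfxn1. Of these, 8 were measured, 6 of them lower in NKR-P1B+ cells, where 52.2% of all measured genes were. Their median log2 difference was −0.44 against −0.02 over all measured genes. With poly-A scaling this median was 0.09, against 0.50 over all measured genes. Under that scaling 1 gene of the list was at least 1.5-fold apart, where 39% of all measured genes were. On the deposited scale, by at least 1.5-fold, 2 were lower and 1 higher in NKR-P1B+ cells, where 5.72% and 5.06% of all measured genes were. Mthfd1l, the mitochondrial formate-producing enzyme, had 23.3 in NKR-P1B+ cells and 37.8 in Ly49s3+ cells (1.62-fold). Shmt1, the cytosolic serine hydroxymethyltransferase, had 74.1 in NKR-P1B+ cells and 112.5 in Ly49s3+ cells (1.52-fold). Amt, of the glycine cleavage system, was higher in NKR-P1B+ cells at 59.8 against 36.6 in Ly49s3+ cells (1.63-fold). Shmt2 and Mthfd2, the mitochondrial enzymes that take up serine carbon, are named after their values were seen. Shmt2 had 148.7 in NKR-P1B+ cells and 222.2 in Ly49s3+ cells (log2 difference −0.58), just inside 1.5-fold, whereas Mthfd2 had 427.3 in NKR-P1B+ cells and 415.8 in Ly49s3+ cells (0.04). The 3 genes at least 1.5-fold apart became 0 with log2 of the value plus 32, 1 when the floor was set at the 65th percentile and 2 under quantile normalisation. The list was thus mixed, and its members at least 1.5-fold apart had low signals.

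Di- and tricarboxylate, aspartate and glutamate carriers feed the malate-aspartate shuttle and export citrate for lipid synthesis. Of 8 genes 6 were measured, with a median log2 difference of −0.24 and 4 of the 6 lower in NKR-P1B+ cells, where 52.2% of all measured genes were. Slc25a10, which exchanges malate and succinate for phosphate, had 20.2 in NKR-P1B+ cells, just below the floor, and 39.5 in Ly49s3+ cells, at least 1.94-fold lower in NKR-P1B+ cells. Its second probe set had 22 in NKR-P1B+ cells and 24.2 in Ly49s3+ cells, 1.10-fold apart, and averaging the probe sets took the gene below 1.5-fold, to −0.55. Slc25a1, the citrate carrier, had 311.8 in NKR-P1B+ cells and 391.5 in Ly49s3+ cells (log2 difference −0.33). Slc25a11, the oxoglutarate/malate carrier, had 253.8 in NKR-P1B+ cells and 298.2 in Ly49s3+ cells (−0.23). The calcium-sensitive aspartate/glutamate carriers ran in opposite directions on the deposited scale. Slc25a12 had 127.7 in NKR-P1B+ cells and 111.1 in Ly49s3+ cells (0.20), and Slc25a13 had 123.4 in NKR-P1B+ cells and 147.0 in Ly49s3+ cells (−0.25). Slc25a22, a glutamate carrier, had 196.6 in NKR-P1B+ cells and 168.7 in Ly49s3+ cells (0.22). Slc25a1, Slc25a11 and Slc25a13 changed sign with poly-A scaling. Slc25a18, a second glutamate carrier, and Slc25a21, a carrier of oxodicarboxylates, were below the floor on both arrays, at most 5.1.

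The enzymes of the shuttles served by these carriers were close to equal between the arrays on the deposited scale. Of 5 measured genes of the malate-aspartate and glycerol phosphate shuttles none was 1.5-fold apart, where 10.8% of all measured genes were. Their log2 differences ran from −0.35 to 0.08, with a median of −0.03. With poly-A scaling the median was 0.50 and 1 gene was at least 1.5-fold apart, where 39% of all measured genes were. Among 5 genes that use citrate or acetate for lipid synthesis, Fasn, fatty acid synthase, was 1.55-fold lower in NKR-P1B+ cells (248.8 in NKR-P1B+ cells, 385 in Ly49s3+ cells). Acss2, the acetate-activating enzyme, was 7.40-fold higher there (563.2 in NKR-P1B+ cells, 76.1 in Ly49s3+ cells), and Acly, which splits citrate exported by Slc25a1, had 472.3 in NKR-P1B+ cells and 506.3 in Ly49s3+ cells.

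Amino acid and acylcarnitine carriers had 5 genes, all measured, none 1.5-fold apart and 4 lower in NKR-P1B+ cells (median log2 difference −0.21). Of all measured genes 52.2% were lower, and Slc25a29, among the 4, was above the floor in Ly49s3+ cells only. Slc25a15, the ornithine carrier of the urea cycle, was just inside 1.5-fold with 118.3 in NKR-P1B+ cells and 168.6 in Ly49s3+ cells (1.43-fold). Its 5 measured probe sets ranged from −0.51 to 0.31 in log2 difference and so did not share a direction. Slc25a38, which brings in glycine for heme synthesis, had 37.8 in NKR-P1B+ cells and 50.7 in Ly49s3+ cells (−0.42). Slc25a20, the acylcarnitine carrier of fatty acid oxidation, had 158.4 in NKR-P1B+ cells and 147.3 in Ly49s3+ cells (0.10). Slc25a44, a branched-chain amino acid carrier, had 62.2 in NKR-P1B+ cells and 62.8 in Ly49s3+ cells, although its second probe set had 44.7 in NKR-P1B+ cells and 60.5 in Ly49s3+ cells. Slc25a29, a carrier of basic amino acids, was at least 1.16-fold lower in NKR-P1B+ cells (14.9 there, 23.6 in Ly49s3+ cells). Slc25a15, Slc25a38 and Slc25a44 changed sign with poly-A scaling, and Slc25a44 also with quantile normalisation.

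**Figure D3:**
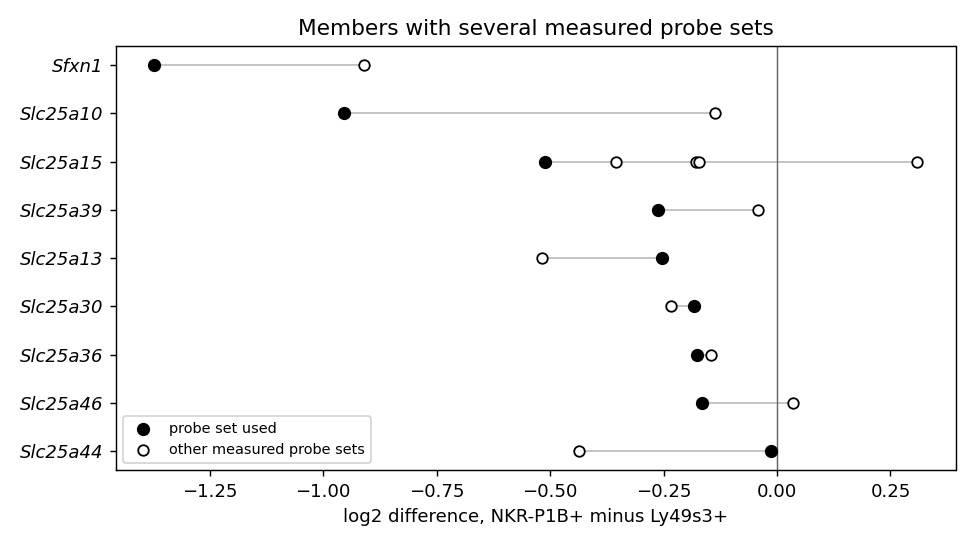
Log2 difference, NKR-P1B+ minus Ly49s3+ on the deposited scale, for the 9 genes with several measured probe sets, with the probe set used filled and the others open. Sfxn1 is negative in both probe sets, Slc25a10 differs by 0.82 between its 2, and Slc25a15 and Slc25a46 have probe sets on both sides of 0.

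Nucleotide and cofactor carriers differed little. The pyrimidine nucleotide carriers Slc25a33 and Slc25a36 supply precursors for mitochondrial DNA and RNA. Slc25a36 had 1288 in NKR-P1B+ cells and 1455 in Ly49s3+ cells (log2 difference −0.18), and its second probe set gave −0.15. Slc25a33 had 123.0 in NKR-P1B+ cells and 144.4 in Ly49s3+ cells (−0.23), and both genes changed sign with poly-A scaling. Slc25a42, a carrier of coenzyme A, was the gene nearest to 1.5-fold from inside, with 33.2 in NKR-P1B+ cells and 48.5 in Ly49s3+ cells (1.46-fold, −0.55). Slc25a17, a carrier of nucleotide cofactors in peroxisomes, had 490.1 in NKR-P1B+ cells and 432.4 in Ly49s3+ cells (0.18). Slc25a16 had 98.5 in NKR-P1B+ cells and 85.0 in Ly49s3+ cells (0.21). Slc25a32, the folate and FAD carrier, was below the floor on both arrays, at 15.5 in NKR-P1B+ cells and 18.7 in Ly49s3+ cells.

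Iron enters mitochondria through the mitoferrins. Slc25a37, mitoferrin 1, which is known for its role in erythroid cells, had 938.5 in NKR-P1B+ cells and 925.9 in Ly49s3+ cells, a log2 difference of 0.02. Slc25a28, the broadly expressed mitoferrin 2, had 205.4 in NKR-P1B+ cells and 149.6 in Ly49s3+ cells (1.37-fold, 0.46). Slc25a39, a glutathione carrier, had 207.5 in NKR-P1B+ cells and 248.9 in Ly49s3+ cells (−0.26), changing sign with poly-A scaling. Of 11 measured heme and iron-sulfur cluster genes, with a median of −0.01, Fech, the enzyme that inserts iron into heme, was the one gene at least 1.5-fold apart, at 76.6 in NKR-P1B+ cells and 43.6 in Ly49s3+ cells (1.76-fold). With the floor at the 65th percentile or log2 of the value plus 32 no gene of this list, Fech included, was that far apart. With poly-A scaling 4 were, where 39% of all measured genes were, against 10.8% on the deposited scale.

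Among the carriers related to uncoupling proteins, Slc25a30 had 528.7 in NKR-P1B+ cells and 600.0 in Ly49s3+ cells (log2 difference −0.18, changing sign with poly-A scaling). Slc25a14 had 98.5 in NKR-P1B+ cells and 79.3 in Ly49s3+ cells (0.31), and Slc25a27 was below the floor at 14.1 in NKR-P1B+ cells and 16.4 in Ly49s3+ cells. The uncoupling protein Ucp2, a carrier relative outside the symbol rule, had 217.6 in NKR-P1B+ cells and 187.1 in Ly49s3+ cells, and Mtch2, an outer membrane insertase of the same fold, had 750.8 in NKR-P1B+ cells and 756.2 in Ly49s3+ cells.

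Of 7 less characterised genes 4 were measured. Slc25a45 was at least 1.93-fold higher in NKR-P1B+ cells, at 39.4 against 19.3 in Ly49s3+ cells, the second value being below the floor. Slc25a46, an outer membrane protein that shapes mitochondria, had 832.8 in NKR-P1B+ cells and 933.3 in Ly49s3+ cells (log2 difference −0.16). Its second probe set gave 0.03, and the gene changed sign with poly-A scaling. Slc25a53 had 571 in NKR-P1B+ cells and 478.4 in Ly49s3+ cells (0.26), and Slc25a51l1 had 36.7 in NKR-P1B+ cells and 30.1 in Ly49s3+ cells (0.29). Slc25a34, Slc25a35 and Slc25a48 were below the floor, at most 11.9 in NKR-P1B+ cells and 19.4 in Ly49s3+ cells. Slc25a51, the NAD carrier, was left out because its 2 probe sets each list 2 gene entries of that symbol. They had 558.4 and 454.5 in NKR-P1B+ cells against 727.1 and 732.8 in Ly49s3+ cells, 1.30-fold and 1.61-fold lower in NKR-P1B+ cells on the deposited scale.

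Other parts of the mitochondrial transport system were close to equal on the deposited scale. On the probe sets used, none of the 13 genes that import carrier proteins, such as Timm22, Timm9 and Timm10, was 1.5-fold apart, with log2 differences from −0.52 to 0.39 and a median of 0.04. None of 12 measured genes for the pyruvate carrier, the calcium uniporter and the outer membrane channels was either (median −0.04), nor was any of 13 measured mitochondrial biogenesis genes (median 0.08). Other probe sets of Timm8a1 (−0.63), Vdac1 (−0.59, a bound), Nrf1 (−1.05) and Polg (−0.70) were at least 1.5-fold lower in NKR-P1B+ cells, and none was that much higher. Averaging probe sets left no gene of these lists 1.5-fold apart, but moved the import and biogenesis medians to −0.14 each. With poly-A scaling, which raised the median of all genes as given above, 6, 4 and 7 genes of these lists were at least 1.5-fold apart, where 39% of all measured genes were. In a list of creatine and nucleotide kinases and the ATP synthase inhibitor, 3 of 8 genes on the array were measured. The inhibitor gene Atp5if1 had 230 in NKR-P1B+ cells and 212.7 in Ly49s3+ cells, the adenylate kinase gene Ak3 had 110 in NKR-P1B+ cells and 110.6 in Ly49s3+ cells, and Ckb, brain-type creatine kinase, was 2.57-fold higher in NKR-P1B+ cells (421.6 in NKR-P1B+ cells, 164.3 in Ly49s3+ cells). The 129 measured Slc genes outside the Slc25a family had a median of −0.06 on the deposited scale. Of these, 8 were at least 1.5-fold higher and 11 lower in NKR-P1B+ cells, where 5.06% and 5.72% of all measured genes were.

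**Figure D4:**
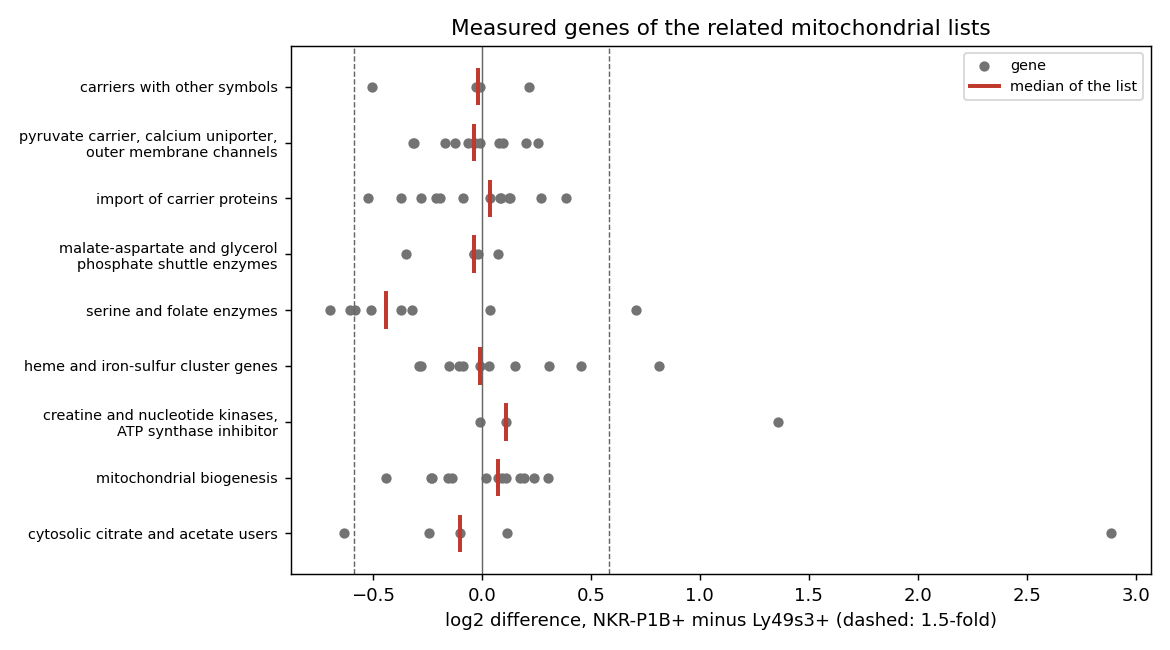
Log2 difference, NKR-P1B+ minus Ly49s3+ on the deposited scale, for every measured gene of 9 related lists (grey points) with the median of each list (red bars) and 1.5-fold (dashed lines). The serine and folate enzymes have the lowest median, −0.44 (0.09 with poly-A scaling), and the import genes all lie inside 1.5-fold on the probe sets used.

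The identity of the cells was checked with marker lists. All 9 NK markers on the array were measured, including Klrb1a, which encodes the NKR-P1A of the sort, at 3740 in NKR-P1B+ cells and 3813 in Ly49s3+ cells. Gzmb, granzyme B, was the one at least 1.5-fold apart on the probe set used, at 3973 in NKR-P1B+ cells and 2549 in Ly49s3+ cells (1.56-fold). Eomes ran the other way, at 1236.7 in NKR-P1B+ cells and 1820.5 in Ly49s3+ cells (1.47-fold). Its second probe set had 402.2 in NKR-P1B+ cells and 663.5 in Ly49s3+ cells (log2 difference −0.72). Because Slc25a4 is a muscle carrier and Slc25a37 and Slc25a38 have erythroid roles, muscle and erythroid markers are given beside them. Of 15 muscle markers on the array 5 were measured, with summed signals over the list of 820.4 in NKR-P1B+ cells and 850.7 in Ly49s3+ cells. Most of both sums came from Myh1, a myosin heavy chain, at 635.7 in NKR-P1B+ cells and 574.3 in Ly49s3+ cells (log2 difference 0.15). Tnnt3 had 46.9 in NKR-P1B+ cells and 39.7 in Ly49s3+ cells (0.24), and Tnnc2 had 25.1 in NKR-P1B+ cells and 25.7 in Ly49s3+ cells (−0.03). Acta1, Ckm and Mb, encoding skeletal actin, muscle creatine kinase and myoglobin, were below the floor on both, at most 9.2. Myh2 and Tnni2 were 3.18-fold and 3.79-fold lower in NKR-P1B+ cells, at 24.0 and 23.4 there against 76.4 and 88.6 in Ly49s3+ cells. Of 8 erythroid markers 4 were measured (summed signals 379.3 in NKR-P1B+ cells and 361.2 in Ly49s3+ cells), with Hbb at 276.3 in NKR-P1B+ cells against 152.8 in Ly49s3+ cells and Hemgn at 50.6 in NKR-P1B+ cells against 131.1 in Ly49s3+ cells. Epor, the erythropoietin receptor, was at least 1.75-fold lower in NKR-P1B+ cells, at 15.5 there and 35.8 in Ly49s3+ cells. Alas2, Klf1, Gata1 and Ahsp were below the floor on both arrays. Markers of macrophages and antigen-presenting cells (3 of 10 measured), B cells (2 of 5) and T cells (5 of 8) had summed signals of 2884, 147.2 and 2557 in NKR-P1B+ cells against 2035, 64.3 and 1091 in Ly49s3+ cells. Itgax, at 2281 in NKR-P1B+ cells and 1716 in Ly49s3+ cells, made up most of the macrophage sum. In the same list Lyz2, lysozyme, had 356.3 in NKR-P1B+ cells and 133 in Ly49s3+ cells (2.68-fold), and Cd74, the invariant chain, had 197.3 in NKR-P1B+ cells and 120 in Ly49s3+ cells (1.64-fold). Among B cell markers Jchain, the immunoglobulin joining chain, had 98.1 in NKR-P1B+ cells and 33.4 in Ly49s3+ cells (2.94-fold). Cd8a, which rat NK cells also express, made up most of the T cell sum, at 2151 in NKR-P1B+ cells and 767.4 in Ly49s3+ cells (2.80-fold). Cd5 had 92.7 in NKR-P1B+ cells and 40.8 in Ly49s3+ cells (2.27-fold), and Cd6 had 273.1 in NKR-P1B+ cells and 179.4 in Ly49s3+ cells (1.52-fold). Of the CD3 genes, Cd3g was 1.92-fold lower in NKR-P1B+ cells, at 22.3 there and 42.9 in Ly49s3+ cells, while Cd3d and Cd3e were below the floor on both arrays. The part of other cells in the carrier differences was not tested.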

How the data were processed

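RNA of 2 sorted NK cell populations was hybridised to 1 Affymetrix rat expression array each, from 3 ug of total RNA per the labels. The deposited table holds an intensity on a linear scale for each probe set of each array, made with MAS5 per the submitters' processing notes. The MAS5 version, the scaling target and the detection calls were not given. After 2% was trimmed from each end, both arrays had a mean of 100.04, so a common scaling is seen in the values, and the medians were 19.6 (NKR-P1B+) and 21.3 (Ly49s3+). Actin controls gave 3' to 5' ratios of 11.9 (NKR-P1B+) and 13.2 (Ly49s3+) and GAPDH controls 2.84 (NKR-P1B+) and 2.77 (Ly49s3+), and what this does to the carrier probe sets was not tested. Of 31099 probe sets 20832 had 1 gene symbol, 436 several and 9831 none listed. All 44 carrier and sideroflexin symbols matched a RefSeq GRCr8 table by gene number, which was used for names and promoter sequences.

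Signals were floored at 20.4, the 50th percentile of non-control signals of both arrays, and converted to log2, and the difference is NKR-P1B+ minus Ly49s3+. Where 1 value was at the floor the ratio is a bound, written "at least". Signals of different probe sets depend on the probes, so their sizes are not read as relative amounts of RNA. The sums over marker lists add such signals and describe the arrays only. Genes at least 1.5-fold apart were counted beside the same count over all measured genes, and no p-value was computed, as 1 array per population leaves no residual degrees of freedom. The number of arrays limits the precision. Other settings were floors at the 35th and 65th percentiles, log2 of the value plus 32, median centring, quantile normalisation, scaling to poly-A spikes and averaging of probe sets. The text gives every carrier and sideroflexin gene and names members of other lists that were at least 1.5-fold apart, up to 3 per direction, with a few more named for context. The genes, lists and settings were chosen with earlier results of these data known, Slc25a4 among them. Scripts used Python 3.11.15, NumPy 2.4.6, pandas 2.3.3 and SciPy 1.17.1 and were tested on simulated data.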

Additional observations from a re-analysis of the deposited data

How the results depend on the processing

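Slc25a4, Sfxn1 and Slc25a25 stayed at least 1.5-fold apart in the same direction under all 7 planned settings, with log2 differences from −1.68 to −1.15, from −1.38 to −0.84 and from 0.72 to 1.44. Slc25a10 and Slc25a45 were below the floor at the 65th percentile on both arrays and fell inside 1.5-fold with log2 of the value plus 32, at −0.45 and 0.48. Slc25a10 did so too with averaged probe sets (−0.55) and poly-A scaling (−0.44). When signals were floored at the 35th percentile, 4 of 39 carrier and sideroflexin genes were at least 1.5-fold higher and 5 lower in NKR-P1B+ cells, with 764 and 1091 of 11187 genes. At the 65th percentile 1 of 27 was higher and 2 lower, with 277 and 246 of 7114 genes. Log2 of the value plus 32 gave 1 of 34 higher and 2 lower, with 279 and 233 of 9114 genes. Scaling to poly-A spikes, which moves differences upward, gave 14 of 33 higher and 2 lower, a median of 0.46, and 3480 and 94 of 9162 genes, against 461 and 521 of 9114 on the deposited scale. Counting Slc25a51 changed neither count. No paired analysis was possible because each population has 1 array. The absence of replicate arrays, low signals near the floor, and the unknown scaling before deposit limit these results.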
